A study of Mus musculus with 32 samples.

Results

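Voltage-gated sodium channels carry the inward current that starts and propagates the action potential in neurons. Each channel is a large pore-forming α subunit (Scn1a and Scn8a encode NaV1.1 and NaV1.6) joined by smaller β subunits (Scn2b, Scn3b), which alter gating and hold the channel at the cell surface. The FGF homologous factors (Fgf12, Fgf13, Fgf14) are intracellular relatives of the fibroblast growth factors that are not secreted and bind the C-terminal tail of the α subunit, where they shift inactivation and help to place channels at the axon initial segment. In the cortex NaV1.6 is the main channel of the initial segment of pyramidal neurons, and NaV1.1 is prominent in fast-spiking interneurons.

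The genes described here are the sodium channel subunits Scn1a, Scn2a1, Scn3a, Scn8a, Scn2b and Scn3b and the FGF homologous factors Fgf12, Fgf13 and Fgf14, and every array probe annotated with one of these 9 symbols was taken. The table of 25697 probes and 18138 symbols held 7 of the 9 symbols, with 15 probes, and Scn2a1 and Scn3a were not analysed here. RNA came from the frontal cortex (FCtx) of 32 female hybrid F1 mice of the strains C57BL/6J and FVB/NJ, 1 mouse per Illumina MouseRef-8 v2.0 array. The 20 ethanol-treated mice had the choice of 20% ethanol or water in a limited daily period of the dark phase over 20 days, and the 12 controls were untreated. The age at tissue collection is not given in the sources used here, and the labels name 1 direction of the cross whereas the Methods name both. The question of the comparison was which transcripts differ in FCtx after voluntary drinking.

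The arrays lay on 4 chips with 8 positions each. Ethanol-treated mice filled chips 1 and 2, controls filled chip 4, and chip 3 held 4 mice of each group. On chip 3 the ethanol-treated mice were at the odd positions (A, C, E, G) and the controls at the even positions (B, D, F, H), so that treatment and position cannot be told apart within that chip, and treatment and chip cannot be told apart across the other 3. Signals were variance-stabilized and quantile-normalized to a log2 scale, and the 10187 probes detected (p-value below 0.01) on 24 or more arrays were tested by limma with Benjamini-Hochberg adjustment over all of them. The number of detected probes was 9480 on the array of control C66 on chip 4 and at least 10637 on the others.

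The sequences of 8 of the 9 tested probes are printed so that it is clear which stretch of each transcript was read. Base positions are those of the deposited transcript annotation and are used below to tell the probes of 1 gene apart. The deposited genome positions name no build, and since 8.62% of all positioned probes fall inside the GRCm38 span of their gene they are not GRCm38 positions. The first is Scn1a at base 2540 of its transcript record, in coding sequence of the C-terminal tail of NaV1.1, shown because its levels had the widest spread between mice.
Scn1a base 2540: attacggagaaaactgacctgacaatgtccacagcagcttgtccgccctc
Both Fgf13 probes are shown because they gave different results 1035 bases apart on the same transcript. The first 26 bases of the probe at base 1086 (chrX:56316685-56316734, minus strand) end in the stop codon of the reading frame, in capitals, and the first 30 bases are given of the probe at base 2121 (chrX:56315650-56315699, minus strand).
Fgf13 base 1086: ccatgagccacaacgaatcaacgTAG
Fgf13 base 2121: ctcacctgtacatgtacaagtcctcctgtc
The first 30 bases of both tested Fgf12 probes are shown because the probes lay on opposite sides of 0 within chip 3. They were at base 86 (chr16:28752984-28753033) and base 2864 (chr16:28160322-28160371), both on the minus strand.
Fgf12 base 86: ggcgaaagcatcagattggctttccagatt
Fgf12 base 2864: gaagggaagtgcctggagtttacggtgaga
The first 30 bases of the Scn3b probes at base 1517 (chr9:40096479-40096528) and base 3188 (chr9:40098150-40098199), on the plus strand, and of the Scn2b probe at base 3868 (chr9:44880973-44881022), on the plus strand, are shown because they read the β subunits.
Scn3b base 1517: acctgacttccggactctatcagaactcct
Scn3b base 3188: agctgtgaacttggttactcggttgggcct
Scn2b base 3868: gacccagctgcgggggcaggctggatttct
No letters in these sequences are in capitals other than the Fgf13 stop codon.

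Of the 15 probes, 9 probes of 6 genes passed the detection filter. Scn8a, Scn1a, Scn2b, both Fgf12 probes, the Fgf13 probes at bases 1086 and 2121 and Scn3b at base 3188 were detected on all 32 arrays. Scn3b at base 1517 was detected on 26 arrays, just inside the filter, and its array counts were 19 of 20 ethanol-treated mice but 7 of 12 controls, with 3 of 8 on chip 4. The other Scn3b probes were just outside it, with 23 arrays for the probe at base 802 and 22 for the probe at base 16 of a second transcript. Fgf13 at base 226 was detected on 5 arrays. The 3 probes of Fgf14, the factor mutated in a spinocerebellar ataxia, were detected on 0 of 32 arrays, so these arrays give no level for Fgf14. Their mean signals lay between 121 and 191 intensity units.

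All 9 tested probes had a higher mean in ethanol-treated mice than in controls, and 1 of them, Scn8a, passed an FDR of 1% by limma. Over all tested probes 7.88% passed that threshold and 3.25% passed it as higher, so that 1 of 9 is close to the share over the whole table in either direction. At the wider threshold of a 10% FDR and a change of 1.1-fold or more, Scn8a and Fgf13 at base 1086 passed, 2 of 9 against 7.83% of all tested probes. The median difference of the 9 probes was 0.077 on the log2 scale, beside a median of -0.00223 over all tested probes, of which 48.4% lay above 0. Without Scn3b at base 1517, which passed the detection filter mainly through the ethanol group, the median of the other 8 was 0.10. The 9 probes stem from 6 genes on the same arrays and are not independent. In bulk tissue, fewer cells of a type and less RNA per cell cannot be told apart.

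Scn8a had a normalized level between 8.82 and 9.26 on the log2 scale in the ethanol group (20 mice, median 9.04). In the control group (12 mice, median 8.85) it lay between 8.64 and 9.07. The groups overlapped, although 19 of the 20 ethanol-treated mice lay above the control median and 9 above the highest control. The means were 9.02 ± 0.12 (SD, n = 20) and 8.85 ± 0.13 (SD, n = 12), a difference of 0.17 (standard error 0.043, adjusted p = 0.00681 by limma). In the deposited signals before normalization, the ethanol-treated mice lay between 355 and 557 intensity units and the controls between 189 and 479. The transform compresses dim probes, and on the log2 signal without it the difference was 0.29, and 0.42 after a normexp background correction.

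The Scn8a difference stood close to the threshold. Without any 1 of 10 arrays, those of the ethanol-treated mice A11 and A34 and of the controls C57, C59, C60, C62, C63, C64, C65 and C66, which are all 8 controls of chip 4, its adjusted p rose above 1%, to at most 0.0163 by limma. The difference itself stayed between 0.15 and 0.19 when each array was left out in turn. With all 25697 probes tested, its adjusted p was 0.0162 and 0 of the 15 probes passed an FDR of 1% (background 2.15%), with 5 at an unadjusted p below 0.05 (background 18.4%). Among these 5 were Fgf13 at base 226, detected on few arrays, and Scn3b at base 1517, which is close to background on chip 4.

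Fgf13 at base 1086 gave a difference of the same size. Its level lay from 9.09 to 9.47 in the ethanol group (median 9.29) and from 8.92 to 9.45 in the control group (median 9.09). The groups overlapped, with 19 of 20 ethanol-treated mice above the control median and 6 of 12 controls below the lowest ethanol-treated mouse. The difference of the means was 0.17 (standard error 0.050, adjusted p = 0.0197 by limma), or 0.25 on the log2 signal without the transform and 0.33 with normexp. Without the control C52 or the control C54, both on chip 3, its adjusted p fell below 1%, the lowest being 0.00513 by limma.

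The other Fgf13 probe read a different pattern. At base 2121 the level lay from 11.12 to 11.57 in the ethanol group (median 11.35) and from 11.13 to 11.50 in the control group (median 11.38). The groups overlapped almost fully and the difference was 0.0055 (95% confidence interval -0.073 to 0.084, adjusted p = 0.941 by limma). The gap of 0.16 between the differences of the 2 Fgf13 probes (standard error 0.068) was larger than that of 91.8% of the 2865 pairs of tested probes of the same gene. Over all those pairs the median gap was 0.05. Over all arrays, the fold change of Fgf13 therefore depended on which probe was read. Between the chips that held only ethanol-treated mice or only controls, the gap was 0.25. Within the chip that held both groups it was -0.042. The gap was thus seen only between chips, where treatment and chip cannot be told apart, and its cause was not tested.

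Of the β subunits, Scn3b passed neither threshold. At base 3188 its level lay from 9.10 to 9.58 in the ethanol group (median 9.36) and from 9.09 to 9.45 in the control group (median 9.23). The groups overlapped and the difference was 0.12 (standard error 0.042, adjusted p = 0.0394 by limma). At base 1517 the difference was 0.074 (standard error 0.026, adjusted p = 0.0473 by limma). The value of that dim probe depended most on the transform, with 0.18 on the log2 signal without it and 0.37 with normexp, where the probe at base 3188 had 0.17 and 0.22. In both settings Scn8a, Fgf13 at base 1086 and Scn3b at base 3188 passed the wider threshold. Scn3b at base 1517 also passed it, but had passed the detection filter mainly through the ethanol group. With that probe this made 4 of 9 probes, against 16.7% of all tested probes without the transform and 22.7% with normexp.

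Scn2b, the subunit that links to the α subunit by a disulphide bond, had a level from 10.08 to 10.56 in the ethanol group (median 10.32) and from 10.05 to 10.39 in the control group (median 10.26). The groups overlapped and the difference of 0.077 did not pass (95% confidence interval -0.021 to 0.17, adjusted p = 0.274 by limma). Within each array, Scn3b at base 3188 minus Scn2b had a mean of -0.96 ± 0.23 (SD, n = 20) in the ethanol group and of -1.0 ± 0.11 (SD, n = 12) in the control group. That difference changed by 0.045 (standard error 0.060) between the groups, within its error. The larger spread was between chips of the same treatment, with -1.10 ± 0.21 (SD, n = 8) on chip 1 and -0.78 ± 0.14 (SD, n = 8) on chip 2.

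Scn1a had the widest spread of the tested probes. Its level lay from 9.18 to 10.14 in the ethanol group (median 9.63) and from 9.28 to 9.79 in the control group (median 9.49). The groups overlapped, and 5 ethanol-treated mice lay above the highest control and 1 below the lowest. The difference of 0.15 was as large as that of Scn8a within its error but did not pass (95% confidence interval -0.00298 to 0.31, adjusted p = 0.166 by limma).

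Fgf12 gave differences of 0.031 at base 86 (95% confidence interval -0.032 to 0.094, adjusted p = 0.52 by limma) and 0.063 at base 2864 (-0.024 to 0.15, adjusted p = 0.321). At base 86 the 20 ethanol-treated mice lay between 8.65 and 9.02 and the controls between 8.65 and 8.86. At base 2864 they lay between 10.48 and 11.04 and between 10.55 and 10.91. Both probes overlapped between the groups over most of their range.

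**Figure D1:**
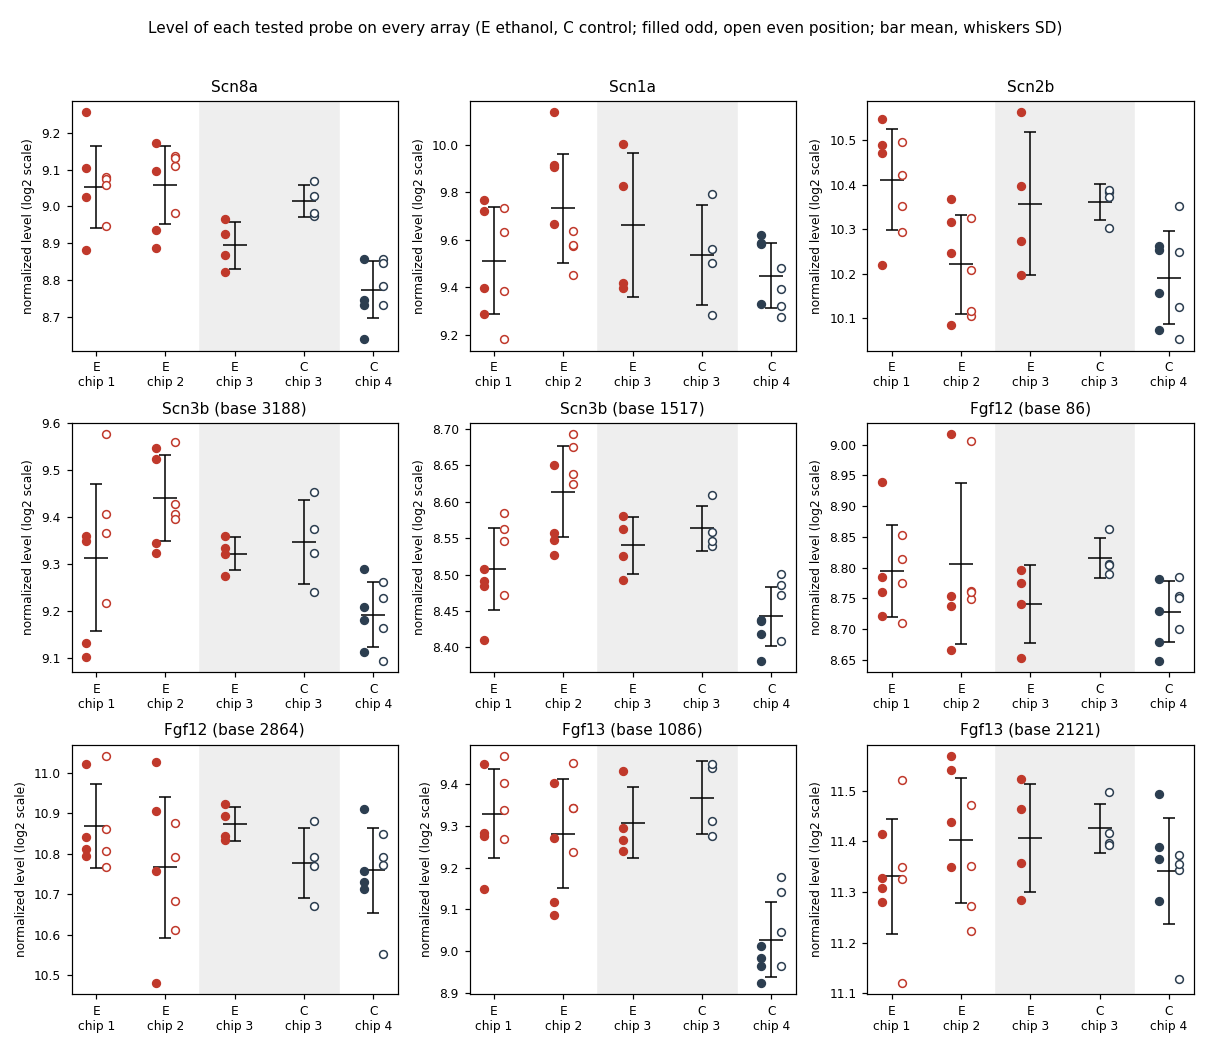
Normalized level on the log2 scale (vertical axis, each panel with its own range) of the 9 tested probes on each of the 32 arrays, by group and chip, with E for ethanol, C for control, filled points for odd and open points for even positions, and bars for the mean and SD of each set. For Scn8a and Fgf13 at base 1086 the 8 controls of chip 4 lie low, whereas the 4 controls of chip 3, in the shaded area with the 4 ethanol-treated mice of that chip, reach the levels of chips 1 and 2.

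Because chips 1, 2 and 4 each held 1 group, the comparison was divided into the part between chips and the part within chip 3. Between chips 1 and 2 and chip 4, 4 of the 9 probes passed an FDR of 1% by limma, all higher in ethanol-treated mice, against 11.5% of all tested probes in either direction and 5.5% as higher. They were Scn8a, Fgf13 at base 1086 and both Scn3b probes (0.18 at base 3188 and 0.12 at base 1517). Of the 8 probes detected on all arrays, which leave out Scn3b at base 1517, 3 passed. With median scaling the Scn3b probes no longer passed (adjusted p = 0.0628 and 0.0206 by limma), leaving 2 of 9 against 2.88% of all tested probes. With normexp Scn3b at base 3188 did not pass (adjusted p = 0.0103 by limma), leaving 3 of 9 against 10.5% of all tested probes. Scn3b at base 1517 was detected on 3 of the 8 arrays of chip 4, so its value there is close to background and was 0.60 with normexp. Within chip 3, 0 of the 9 passed an FDR of 1% (background 1.68%) and 1, Scn8a, passed an FDR of 10% (background 15.9%, and 8.17% as lower), with a lower level in ethanol-treated mice. At an unadjusted p below 0.05 this was also the only 1 of the 9 by limma, against 25.7% of all tested probes. On chip 3, 7 of the 9 probes lay below 0, with a median of -0.023 beside -0.000416 over all tested probes.

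Scn8a lay between 8.88 and 9.26 in the 16 ethanol-treated mice of chips 1 and 2 and between 8.64 and 8.86 in the 8 controls of chip 4. These sets did not overlap, which held for 0.775% of all tested probes and, with ethanol higher, for 0.334%, and the difference was 0.28 (standard error 0.040, adjusted p = 2.98e-05 by limma). On chip 3 the 4 ethanol-treated mice had levels of 8.82, 8.87, 8.92 and 8.97, and the 4 controls 8.98, 8.98, 9.03 and 9.07. These sets did not overlap either, but in the opposite order, which held for 15.2% of all tested probes in either order and 7.58% in this one. The chip 3 difference was -0.12 (standard error 0.041, adjusted p = 0.0929 by limma), and without any 1 of 6 of the 8 mice of that chip (A46, A49, A50, C54, C55 and C56) it no longer passed 10%, with an adjusted p of up to 0.218. Among all tested probes, 4 (0.0393%) had groups that did not overlap in both parts with opposite directions, and 5 (0.0491%) in both parts with the same direction.

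The difference within chip 3 and that between chips were set against each other in 1 limma fit. For Scn8a they differed by -0.40 (standard error 0.073, adjusted p = 0.00107) and for Fgf13 at base 1086 by -0.34 (standard error 0.084, adjusted p = 0.00953), both at an FDR below 1%, which 3.5% of all tested probes reached. With median scaling Fgf13 lost that call (adjusted p = 0.0214 by limma) and Scn8a kept it. Scn3b at base 1517, with -0.14 (standard error 0.045, adjusted p = 0.0397), was the only other at an FDR below 5%, but most controls of chip 4 did not detect it, and its value was -0.70 with normexp. This made 3 of 9 probes, all of them lower on chip 3, or 2 of the 8 detected on all arrays, beside a background of 10.2%, or 4.85% in that direction. For Scn1a the difference between the parts was -0.046 and for Fgf12 at base 2864 0.037, with 95% confidence intervals from -0.39 to 0.30 and from -0.16 to 0.23.

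Fgf13 at base 1086 lay between 9.09 and 9.47 on chips 1 and 2 and between 8.92 and 9.18 on chip 4, with an overlap and a difference of 0.28 (standard error 0.045, adjusted p = 0.000118 by limma). On chip 3 the ethanol-treated mice had 9.24, 9.27, 9.29 and 9.43 and the controls 9.28, 9.31, 9.44 and 9.45. There the groups overlapped, with a difference of -0.060 (95% confidence interval -0.18 to 0.059). The lowest control of chip 3 was at 9.28 and the highest of chip 4 at 9.18, and for Scn8a they were at 8.98 and 8.86. The controls of chip 3 were at even positions only, and those of chip 4 at both kinds. How many of all tested probes separated these controls was not counted.

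**Figure D2:**
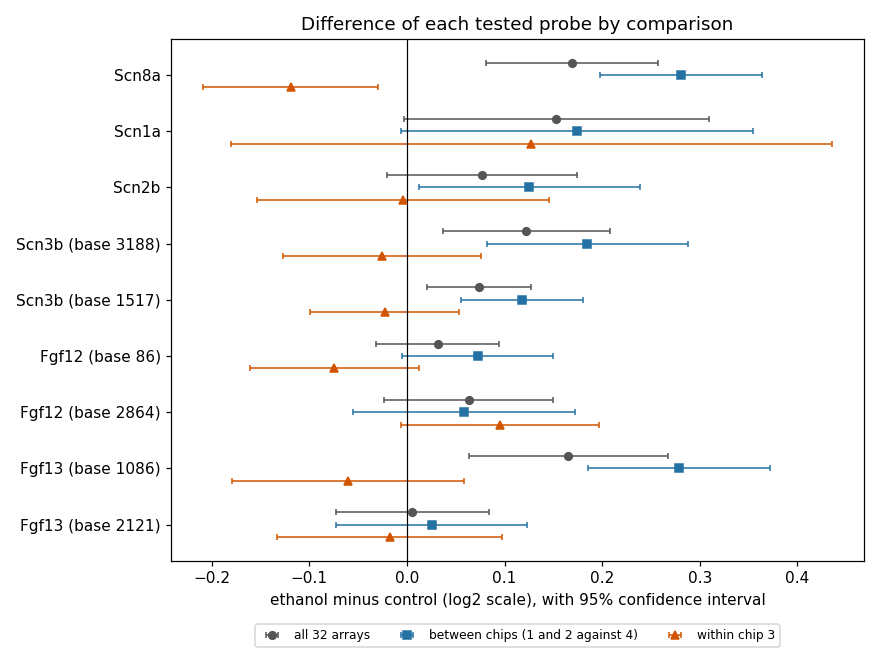
Ethanol minus control on the log2 scale (horizontal axis) with 95% confidence intervals for the 9 tested probes, over all 32 arrays (circles), between chips 1 and 2 and chip 4 (squares) and within chip 3 (triangles). For Scn8a the between-chip value is 0.28 and the chip 3 value -0.12, and for Scn1a and Fgf12 at base 2864 all 3 values lie above 0.

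Arrays of the same treatment on different chips were then compared at matched positions, in a fit with 1 mean for each chip and odd or even set. At even positions, controls of chip 3 exceeded controls of chip 4 by 0.29 (standard error 0.066, adjusted p = 0.00957 by limma) for Fgf13 at base 1086 and by 0.21 (standard error 0.063, adjusted p = 0.0386) for Scn8a. All 9 probes had a higher mean in the controls of chip 3, and 1 of the 9 passed an FDR of 1%, against 1.91% of all tested probes. The controls of chip 3 differed from the ethanol-treated mice at even positions of chips 1 and 2 by less, with -0.012 for Fgf13 at base 1086 and 0.051 for Scn8a as ethanol minus control, and 0 of the 9 probes passed (background 0.157%, or 16 probes). At an unadjusted p below 0.05 none of the 9 passed either, against 14.1% of all tested probes.

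For the ethanol-treated mice, odd positions could be matched. Those of chip 3 had a Scn8a mean 0.15 lower than those of chips 1 and 2 (standard error 0.054, unadjusted p = 0.00972, adjusted p = 0.255 by limma). For the other 8 probes that difference lay between -0.061 and 0.054. Between chips 1 and 2, both of ethanol-treated mice, 0 of the 9 probes passed an FDR of 1% (background 0.481%), although Scn3b at base 1517 was 0.11 higher on chip 2 (adjusted p = 0.012 by limma) and Scn2b 0.19 lower (adjusted p = 0.051). For 6 of the 9 probes, these included, the difference between chips 1 and 2 was larger in size than the ethanol difference over all 32 arrays, with 0.22 against 0.15 for Scn1a.

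Against chip 4 at odd positions, ethanol-treated mice of chip 3 were higher by 0.34 for Fgf13 at base 1086 (adjusted p = 0.00262 by limma) and by 0.15 for Scn8a (adjusted p = 0.157). The ethanol-treated mice of chips 1 and 2 exceeded chip 4 at odd positions by 0.28 and 0.30 and at even positions by 0.27 and 0.26 for these 2 probes in that order. For these 2 probes the difference between chips 1 and 2 and chip 4 was thus present at both kinds of position. Controls at odd positions were on chip 4 only, so chip and treatment cannot be told apart there.

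**Figure D3:**
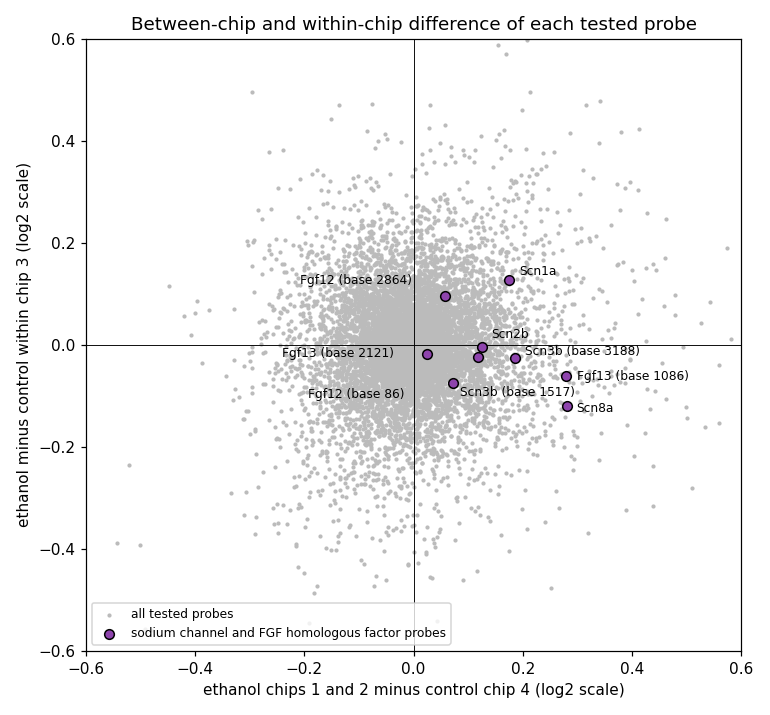
Difference between ethanol-treated mice and controls within chip 3 (vertical axis) against that between chips 1 and 2 and chip 4 (horizontal axis), both on the log2 scale, for all 10187 tested probes (grey, with 11 outside the plotted range) and for the 9 sodium channel and FGF homologous factor probes (purple). All 9 lie to the right of 0 and 7 lie below it, with Scn8a farthest to the lower right.

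Position was compared within chips 1, 2 and 4, where it does not coincide with treatment. By limma with chip as a block, 0 of the 9 probes differed between even and odd positions at an FDR of 1% (background 3.78%), and 3 had an unadjusted p below 0.05 (background 28.1%). Scn1a was lower at even positions by 0.19 (standard error 0.067, adjusted p = 0.063). Fgf13 at base 1086 was higher by 0.11 (standard error 0.038, adjusted p = 0.0654) and Scn3b at base 1517 by 0.068 (standard error 0.020, adjusted p = 0.0252). For Scn8a the difference was 0.033 (95% confidence interval -0.047 to 0.11).

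With chip as a fixed block, the ethanol difference comes from chip 3 alone, because every other chip held 1 group. It repeats the chip 3 differences with an error taken from all 32 arrays, and treatment and position still coincide. In that fit, 0 of the 9 probes passed an FDR of 1% by limma (background 0.128%), and 0 had an unadjusted p below 0.05 (background 19.5%). With chip and position both in the fit, 0 of the 9 probes passed an FDR of 1% by limma (background 0.00982%, or 1 probe), and 0 had an unadjusted p below 0.05 (background 9.2%). Scn8a was then at -0.086 (95% confidence interval -0.23 to 0.061) and Fgf13 at base 1086 at 0.045 (-0.11 to 0.20). The widest interval was that of Scn1a, -0.37 to 0.25. In that fit too the ethanol difference came from the mice of chip 3, adjusted by the position difference of the other chips. It takes the position difference on chip 3 to be the same, which cannot be tested because treatment and position coincide there. Under that assumption, changes of the size seen over all 32 arrays lie outside the interval of Scn8a and inside those of the other 8 probes. With chip alone in the fit, the change over all 32 arrays also lay outside the interval for Scn8a (0.17 against -0.25 to 0.0081). The same held for Fgf13 at base 1086 (0.17 against -0.21 to 0.086) and for both Scn3b probes, but not for the remaining probes. In the fit with chip alone, treatment cannot be told apart from position.

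Several cell type markers moved with these comparisons. Of 7 defining neuron markers, Syt1, Stmn2, Eno2 and Slc17a7 passed the detection filter, the probes of Snap25 and Nefl were not detected on any array, and Rbfox3 was not analysed here. On chip 3 an FDR below 10% by limma was reached by 15.9% of all tested probes. The 4 tested neuron probes had a median difference of -0.077 there, with 1 at that FDR. Their mean level lay between 12.61 and 12.69 in ethanol-treated mice and between 12.74 and 12.84 in controls. The 14 oligodendrocyte probes, for all 8 genes of the list, had a median of -0.33 there, with 9 at an FDR below 10% by limma, and mean levels of 9.88 to 10.04 against 9.96 to 10.46. The 6 tested probes of GABAergic interneurons had a median of 0.14, with 3 at an FDR below 10% and mean levels of 11.64 to 11.68 against 11.39 to 11.52. They cover 5 of the 7 genes of that list, since Gad2 and Lhx6 were not detected on any array. The 3 tested olfactory bulb probes (Doc2g, Cdhr1 and Th, with Eomes and Tbx21 not tested) had a median of 0.40, with 2 at an FDR below 10%. Their mean levels were 9.12 to 9.37 against 8.54 to 8.96. Over all 32 arrays the medians were 0.038, -0.060, -0.044 and 0.14 in the same order of lists, with 1 neuron probe lower and none of the others past an FDR of 1%. Between even and odd positions of chips 1, 2 and 4 the medians were 0.082, 0.11, -0.040 and -0.20 in that order, and on chip 3 the controls were at even positions. The remaining lists had chip 3 medians of 0.13 for astrocytes (3 of 6 probes at an FDR below 10%, and 1 higher at 1% over all 32 arrays), 0.15 for endothelium (2 of 4 probes), 0.054 for oligodendrocyte precursors, -0.0080 for microglia and -0.041 for blood. Of these lists, Gfap, Olig2, Itgam and Alas2 had no tested probe. The part of these differences in the values of the sodium channel probes was not tested.

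Once chip and position were taken out, the correlations among the probes lay about as widely around 0 as those of other genes. Over the residuals of the 32 arrays after subtraction of the mean of each of the 8 sets of 4 arrays, the 36 pairs of probes had a median Pearson correlation of -0.046, between -0.40 and 0.47, and 14 of the 36 lay above 0. Over all pairs of tested genes the median was -0.000507 and the 5th and 95th percentiles were -0.37 and 0.37. The highest of the 36 was that of Scn8a with Scn3b at base 1517. These are descriptions over arrays that share chips, and no test was made.

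Pairs of probes of the same gene were compared in the same way. The residual correlation was 0.16 for the 2 tested Scn3b probes, 0.0077 for those of Fgf12 and -0.086 for those of Fgf13, beside a median of 0.15 over all 2865 pairs of the same gene, of which 72.8% were above 0. Part of the spread was bead error. The standard error over the beads of a probe, with a median of 30.5 to 46 beads per array, made up 6.79% of the variance within sets for Scn1a, 34.4% for Scn8a and 52.9% for Fgf13 at base 1086. Scn1a, with the largest spread between mice, therefore had the smallest share from beads.

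**Figure D4:**
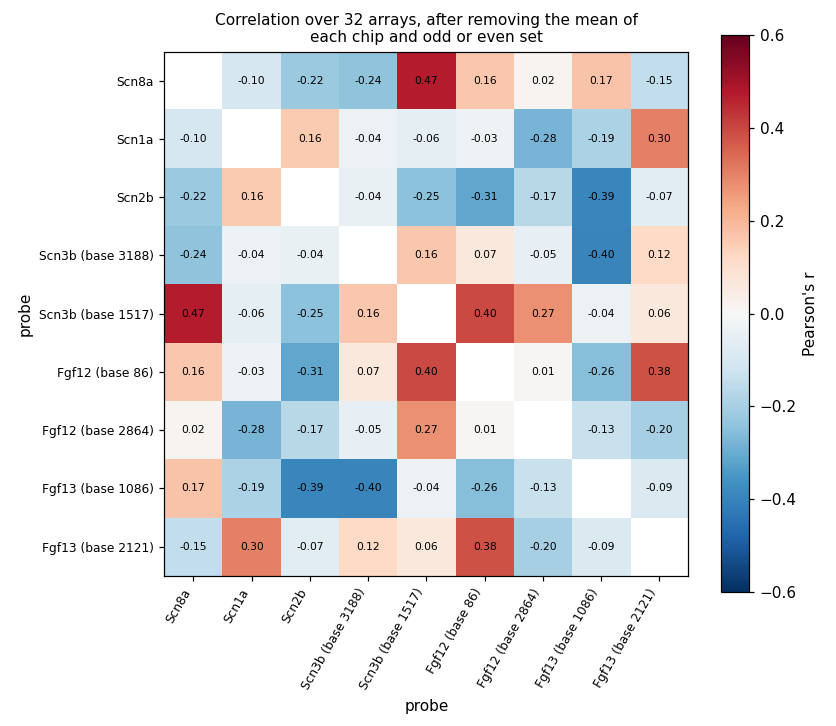
Pearson correlation between the 9 tested probes over 32 arrays after the mean of each chip and odd or even set was removed (colour and printed value, both axes list the probes). Values lie between -0.40 and 0.47, and the pairs of probes of the same gene are at 0.16 for Scn3b, 0.01 for Fgf12 and -0.09 for Fgf13.

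The genes whose residual pattern was most like each probe were taken from the brightest tested probe of each of 7926 genes, so the highest values are extremes of many and are given as descriptions. For Scn1a they were Rnf6 (r = 0.84), Rgs7bp (0.83) and BC008163 (0.82). Rgs7bp, which anchors RGS7 family regulators of G proteins to the membrane, had a difference of 0.35 over the 32 arrays (adjusted p = 0.026 by limma). For Scn8a they were Matk (0.69), Mtrf1 (0.69) and Preb (0.66), with ethanol differences of 0.00215, -0.014 and -0.035 beside 0.17 for Scn8a itself. For Fgf13 at base 1086 they were Hdhd2 (0.69), Zmym5 (0.69) and Pigyl (0.63), and for Fgf13 at base 2121 Herc2 (0.78), Zfp251 (0.73) and Large (0.67).

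The nearest genes of the β subunits were Ssfa2 (0.76), 4931406P16Rik (0.70) and Usp21 (0.68) for Scn3b at base 3188, and 2810008M24Rik (0.75), Epha5 (0.68) and Ubl4 (0.67) for Scn3b at base 1517. For Scn2b they were Rps14 (0.68), Hagh (0.67) and 1700021C14Rik (0.63). For Fgf12 they were Syt16 (0.67), Pigf (0.66) and Vip (0.64) at base 86, and Tctn3 (0.73), Dfna5h (0.67) and Gdpd5 (0.65) at base 2864. None of these lists held another of the 9 probes, of which Scn3b at base 1517, Fgf12 at base 86 and Fgf13 at base 1086 could not appear because a brighter probe stood for their gene.

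Sodium channels work in a complex with other subunits, ankyrins, spectrins, adhesion molecules and regulatory kinases, and a list of 34 such genes was examined beside them. The table held 31 of the 34, with 54 probes, and 25 probes of 19 genes were tested. At an FDR below 1% by limma, 2 probes were higher and 1 lower in ethanol-treated mice, against 3.25% and 4.63% of all tested probes. The median difference of the 25 probes was 0.027, with 18 above 0.

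Nedd4l, a ubiquitin ligase that removes sodium channels from the membrane, ranged from 9.58 to 9.91 in the ethanol group (median 9.76) and from 9.72 to 10.02 in the control group (median 9.93). The groups overlapped and the difference was -0.17 (standard error 0.037, adjusted p = 0.00215 by limma). As for Scn8a, the parts had opposite signs, with -0.26 between chips and 0.077 within chip 3, and they differed by 0.34 (standard error 0.061, adjusted p = 0.00105). Csnk2a2, a catalytic subunit of casein kinase 2, which phosphorylates the ankyrin-binding motif of the channels, was higher by 0.17 (standard error 0.043, adjusted p = 0.00587 by limma). Its value was 0.16 between chips and 0.18 within chip 3 (adjusted p = 0.0378 and 0.052), and its second tested probe gave 0.10 over the 32 arrays (adjusted p = 0.141). At even positions of chips 1, 2 and 4 the first probe was lower by 0.19 (adjusted p = 0.00166 by limma), and with chip and position in the fit its ethanol difference was -0.0067. Camk2d, a subunit of calmodulin-dependent kinase II, was higher by 0.11 (standard error 0.025, adjusted p = 0.00403 by limma), with 0.15 between chips and 0.024 within chip 3, and its second tested probe gave 0.048 over the 32 arrays (adjusted p = 0.0737).

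Scn4b, the remaining β subunit with a tested probe, was picked out after its values were seen. On chip 3 it lay between 9.688 and 9.997 in ethanol-treated mice and between 10.09 and 10.32 in controls, without overlap, as for 7.58% of all tested probes in that direction, and with a difference of -0.29 (standard error 0.071, adjusted p = 0.0336 by limma). Between chips it was higher in ethanol-treated mice by 0.26 (adjusted p = 0.0111), and the 2 values differed by -0.55 (standard error 0.13, adjusted p = 0.00894). Scn4b is most abundant in the striatum among forebrain regions. The 4 tested striatum probes, for 3 of the 6 genes of that list, had a median difference of -0.093 on chip 3. Their mean levels were 8.91 to 9.03 in ethanol-treated mice and 8.98 to 9.17 in controls. Their part in the Scn4b values was not tested.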

How the data were processed

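Total RNA from the FCtx of 20 ethanol-treated mice and 12 controls was measured on 1 Illumina MouseRef-8 v2.0 array each, with group, mouse number, chip and position taken from the labels. The deposited intensities are mean bead signals of each probe, linear and not normalized, and come with a detection p-value. Among the other deposited values are the bead number of each probe and the standard error of its signal. The submitters' processing notes name lumi and limma. Software and background step of the deposited table are not given in the sources used here, and depth does not apply to arrays, where the number of arrays limits precision.

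Here signals were variance-stabilized from bead errors and numbers after the transform the Methods name, rewritten because lumi was not installed, then quantile-normalized. The 10187 probes with detection p-values below 0.01 on at least 24 arrays were compared by limma 3.58.1 in R 4.3.3 without covariates and adjusted by Benjamini-Hochberg over all of them. Fits were tested on simulated data that held no chip or position effects. Thresholds were an FDR of 1%, or 10% with a 1.1-fold change. Comparisons within chip 3, between chips, between odd and even positions, and their difference (FDR of 5%) used the same values. Matched chip and position sets were compared after the data were seen. Every probe of the named symbols was described, with the 3 most correlated genes of each tested probe and the partner genes at an FDR below 1%. Members and lists were chosen with earlier results of these data known. The sequence of 1 tested probe is not reported here. Figures were made with matplotlib 3.10.9.

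Alternatives were log2 without the transform, normexp background (offset 16), scaling by medians, testing all probes or those detected on all arrays, chip as fixed or random block, odd or even position alone or with chip, array weights and leaving out each array. Chips 1, 2 and 4 alone, and their odd or even positions alone, were added after seeing the data.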

Additional observations from a re-analysis of the deposited data

Results flagged for a closer look

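For 3 probes the difference between ethanol-treated mice and controls within chip 3 was not the same as that between chips 1 and 2 and chip 4, by the limma test of the difference itself at an FDR below 5%. Scn8a differed by -0.40, with -0.12 within chip 3 and 0.28 between chips. Fgf13 at base 1086 differed by -0.34, with -0.060 and 0.28. Scn3b at base 1517 differed by -0.14, with -0.023 and 0.12, but it was detected on 3 of the 8 controls of chip 4, so that its level there is close to background. Of all tested probes, 10.2% passed the same test. No single array stood apart from its chip set in the 45 checks made for the tested probes, in which chance alone would mark about 1 in 20.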

How the results depend on the processing

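No paired analysis was possible because mouse numbers of the groups do not overlap. Over 32 arrays, 1 of the 9 probes passed an FDR of 1%, 2 passed 10% with a 1.1-fold change, and 3 partner probes and 803 of all probes passed 1%. In the same order the counts were 0, 1, 0 and 241 with median scaling, 0, 0, 0 and 13 with chip as a fixed block, 0, 0, 0 and 63 with chip as a random block, and 0, 0, 0 and 1 with chip and position. Of the called probes, 331 were higher and 472 lower (41.2% higher), against 36 and 205 (14.9%) with median scaling. The first count was 0 with all probes tested (553 of all 25697 probes) and 3 with position as a covariate (913 of all 10187). The second was 4 with log2 (16.7% of all tested probes) or normexp (22.7%). These 3 and 4 include Scn3b at base 1517, which passed the detection filter mainly through the ethanol group. With chips 1, 2 and 4 alone the first count was 4, that probe included, beside 1175 of all probes. At their odd positions alone it was 0 of the 9 probes, 1 partner probe and 224 of all probes, and at their even positions 2, 1 and 244. Leaving out each array gave ranges of 0 to 2, 2 to 3, 1 to 3 and 539 to 995, with 1 partner probe without C66. On chip 3, 1 probe passed 10%, 0 with all probes tested, and 0 to 2 without each array, with Fgf12 at base 2864 passing without C52. A fit with chip as a fixed block takes its ethanol difference from chip 3 alone. With position added, it also takes the position difference of the other chips. Signs reversed with chip as a fixed block for Scn8a (-0.12), Scn2b (-0.00416), Scn3b at base 3188 (-0.025) and base 1517 (-0.023), Fgf12 at base 86 (-0.075) and Fgf13 at base 1086 (-0.060) and base 2121 (-0.018), and with chip and position for Scn1a (-0.062), Scn8a (-0.086), Scn2b (-0.037), Fgf12 at base 86 (-0.058) and Fgf13 at base 2121 (-0.095). The latter probe, at 0.0055, also reversed with median scaling (-0.062), with position (-0.00938) and without any 1 of A21, A32, A34, A49, C62 and C64 (range over single arrays left out -0.016 to 0.019). The cause of these changes was not tested. Log2 and normexp enlarged the differences of dim probes, to 0.29 and 0.42 for Scn8a and 0.18 and 0.37 for Scn3b at base 1517. Probes near background limit what can be said of Fgf14 and of the Scn3b probe at base 802.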
